A study of Homo sapiens with 4 samples.

Results

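The acetylation of histone H3 at lysine 27 (H3K27ac), a mark of active promoters and enhancers, was examined at 10 genes of the Notch pathway in SK-N-BE(2)C cells, a *MYCN*-amplified human neuroblastoma cell line. The genes were the receptors *NOTCH1*, *NOTCH2* and *NOTCH3*, the ligands *JAG1*, *JAG2*, *DLL1* and *DLL3*, the coactivator *MAML2* and the targets *HES1* and *HEY1*. Each gene was represented by every H3K27ac peak that overlapped its GENCODE gene body plus 10 kb on either side. This gave 49 peaks in sgCtrl, out of 63699, and 36 in sgSNHG1, out of 50119, for 10 of 20007 protein-coding genes. The series compared cells that received a non-targeting control gRNA (sgCtrl, labelled as wild type) with *SNHG1*-depletion cells (sgSNHG1, labelled as knockout). It asked how the chromatin state depends on the long non-coding RNA gene *SNHG1*. The paper describes Cas9 with 2 guide RNAs for different regions of this locus, and states that expression was repressed without a complete knockout. Both groups had 2 samples, which the authors pooled before they called peaks, so that 1 list per group was available and no replicate error could be estimated. The *SNHG1*-depletion clones grew from sorted single cells after puromycin selection. The control was a single clone, whose selection the paper does not describe. The sources do not state which *SNHG1*-depletion clone was used, so that *SNHG1*-depletion and differences between clones cannot be told apart.

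Notch receptors span the membrane and are activated by ligands of the Jagged and Delta-like families on a neighbouring cell. The cleaved receptor enters the nucleus, binds the DNA-binding protein RBPJ together with a Mastermind-like coactivator such as MAML2, and switches on targets of the HES and HEY families, which are transcriptional repressors. In neuroblastoma, Notch signalling is known for its part in the mesenchymal cell state, whereas SK-N-BE(2)C cells are adrenergic.

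Of the 10 genes, *JAG2* had the largest difference in peak number, 12 in sgCtrl and 4 in sgSNHG1, and most of these peaks lay inside the gene. The following 250-base windows, centred on the summits of sgCtrl peaks and read on the strand of the gene in GRCh38, are shown because the comparisons below turn on them. They are the highest summit of *JAG2* in intron 2 (chr14:105162461-105162710), the shared peak of *JAG2* nearest its start (chr14:105167376-105167625), the highest summit of *NOTCH3* in intron 1 (chr19:15199734-15199983), and the peak downstream of *HES1* (chr3:194141196-194141445). The 250 bases before the *HES1* start site (chr3:194135898-194136147), from RefSeq on GRCh38.p14, are shown because this promoter is a textbook target of RBPJ. Capitals mark the RBPJ core TGGGAA or its reverse complement TTCCCA, searched on both strands, and the E-box CACGTG, the word bound by MYCN and its relatives. In the first window, which held neither, they mark the 8-letter word that recurred most.
*JAG2*, intron 2, sgCtrl list only: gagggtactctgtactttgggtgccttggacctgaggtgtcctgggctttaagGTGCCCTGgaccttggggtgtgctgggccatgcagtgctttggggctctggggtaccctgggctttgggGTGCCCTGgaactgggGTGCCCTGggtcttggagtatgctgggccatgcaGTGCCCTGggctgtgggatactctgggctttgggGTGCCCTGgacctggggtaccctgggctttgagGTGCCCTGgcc
*JAG2*, intron 2, shared: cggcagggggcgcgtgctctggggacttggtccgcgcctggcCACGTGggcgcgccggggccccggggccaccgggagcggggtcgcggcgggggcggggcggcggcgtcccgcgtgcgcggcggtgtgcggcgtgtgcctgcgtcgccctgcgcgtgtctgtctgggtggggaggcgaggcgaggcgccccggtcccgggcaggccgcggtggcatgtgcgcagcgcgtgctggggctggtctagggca
*NOTCH3*, intron 1, shared: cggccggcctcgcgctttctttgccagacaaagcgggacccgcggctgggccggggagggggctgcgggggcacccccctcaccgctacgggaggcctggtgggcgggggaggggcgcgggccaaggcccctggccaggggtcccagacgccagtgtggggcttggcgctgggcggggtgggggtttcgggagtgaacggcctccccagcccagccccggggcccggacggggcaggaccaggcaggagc
*HES1*, downstream, shared: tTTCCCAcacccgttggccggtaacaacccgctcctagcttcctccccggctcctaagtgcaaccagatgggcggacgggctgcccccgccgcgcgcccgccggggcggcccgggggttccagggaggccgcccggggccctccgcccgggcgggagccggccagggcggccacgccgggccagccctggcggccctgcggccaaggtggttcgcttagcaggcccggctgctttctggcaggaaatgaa
*HES1*, promoter: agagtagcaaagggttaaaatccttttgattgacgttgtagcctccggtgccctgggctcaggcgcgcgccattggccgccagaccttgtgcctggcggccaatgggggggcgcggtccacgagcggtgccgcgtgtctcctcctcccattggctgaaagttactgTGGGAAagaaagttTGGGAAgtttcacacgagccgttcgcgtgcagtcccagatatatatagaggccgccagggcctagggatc
The *HES1* promoter held 2 RBPJ cores, which began 84 and 70 bases before the start site, whereas 2.90% of 35116 RefSeq promoters held 2 or more in the same length. None of the other 6 Notch pathway genes with a RefSeq entry (*NOTCH1*, *NOTCH2*, *NOTCH3*, *JAG1*, *JAG2* and *MAML2*) had this word in the window, which 20.8% of all promoters had. Of the summit windows of the 49 sgCtrl peaks, 6 held an RBPJ core and 5 an E-box, and over the whole list these shares were 20.9% and 5.50%. Of the 36 sgSNHG1 windows, 7 held an RBPJ core and 1 an E-box, beside 20.7% and 5.23% of all sgSNHG1 windows.

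**Figure D1:**
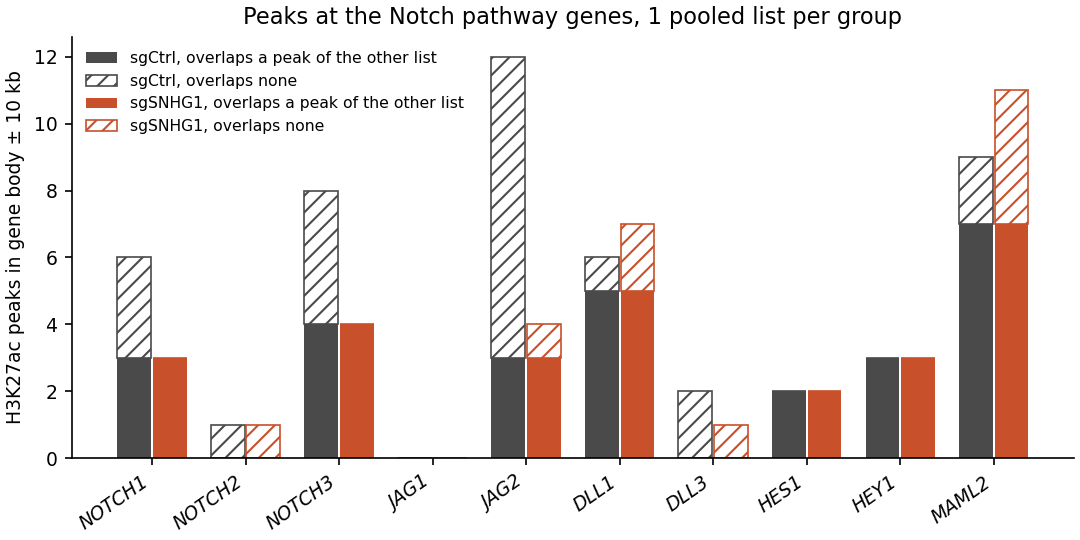
Number of H3K27ac peaks (vertical axis) in the gene body plus 10 kb of each Notch pathway gene in the pooled sgCtrl (grey) and sgSNHG1 (orange) lists. Solid bars count peaks that overlap a peak of the other list and hatched bars those that overlap none; *JAG2* had 12 and 4 peaks, *MAML2* 9 and 11, and *JAG1* none in either list.

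The Notch pathway genes held fewer peaks in the sgSNHG1 list, at a ratio of 0.735 beside 0.787 over all peaks. The bases under their peaks were 22329 in sgCtrl and 15945 in sgSNHG1, a ratio of 0.714, for which no value over the whole lists was computed. *JAG2* alone held 12 and 4 of these peaks and 5854 and 1702 of these bases. Both ratios thus rest largely on this gene and do not describe the set as a whole. The plot of peak numbers shows that 4 genes (*NOTCH1*, *NOTCH3*, *JAG2* and *DLL3*) had fewer peaks in sgSNHG1, as 37.1% of all protein-coding genes did, and that 2 genes (*DLL1* and *MAML2*) had more, as 15.1% of all genes did. *NOTCH2*, *HES1* and *HEY1* had as many in both lists. *JAG1* had no peak in either, as 18.3% of all genes. Peaks that shared at least 1 bp with a peak of the other list numbered 27 of 49 in sgCtrl (55.1%, 41.3% to 68.1% by the 95% Wilson interval). The 22 that did not made up 44.9%, beside a background of 38.5% of the whole sgCtrl list. Of the 12 sgCtrl peaks of *JAG2*, 3 had a counterpart, so that the sgCtrl shares given here also rest largely on this gene. In sgSNHG1 they numbered 27 of 36 (75%, 58.9% to 86.2%), and the 9 others made up 25% beside 20.8% of the whole list. The sgCtrl peaks without a counterpart were 19 of the 33 peaks more than 3 kb from any protein-coding start site and 3 of the 16 nearer ones, beside 47.2% and 20.7% over the list. Over the whole sgCtrl list, 20226 of the 24543 peaks without a counterpart were likewise more than 3 kb away. All intervals cover counting error only, since the authors kept duplicate fragments and pooled the replicates. The Wilson intervals also treat peaks as independent, which neighbouring peaks of 1 gene, such as those of *JAG2*, need not be.

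Depth did not differ between the lists. The fold enrichment and the p-value of a peak give back the number of fragments over its summit (the pileup) and the background that the peak caller set for it, and this worked for 99.9% of sgCtrl and 99.95% of sgSNHG1 peaks. The genome background, the pileup to be met at a random position, was 4.89 fragments in sgCtrl and 4.66 in sgSNHG1, and pileups are compared here after division by it. The local background of a peak was above that floor where the surrounding 10 kb held more fragments, in steps of 1 fragment end. From these steps the fragment length was 208 bp in sgCtrl and 197 bp in sgSNHG1, the libraries held fragments at a ratio of 1.00, and a 10 kb stretch at the genome background held 236 fragments in both. The sources name no input library, and the local background was 1.58 times the genome background at sgCtrl peaks with no other summit within 5 kb and 8.74 times at those with 3 or more (1.69 and 8.05 in sgSNHG1), so that it followed the H3K27ac signal around a peak. It is used below as a measure of signal over 10 kb, a choice made after the values were seen. Stretches around summits less than 10 kb apart share fragments, so that their values and intervals are not independent of one another. Of 6 adrenergic marker genes (*MYCN*, *HAND2*, *GATA3*, *ISL1*, *TH* and *DBH*), 5 in sgCtrl and 6 in sgSNHG1 had a peak within 1 kb of a start site, with *DBH* lacking one in sgCtrl. None of the 3 blood markers and 2 endothelial markers had one in either list, and both epithelial markers, *EPCAM* and *CDH1*, had one in both lists.

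**Figure D2:**
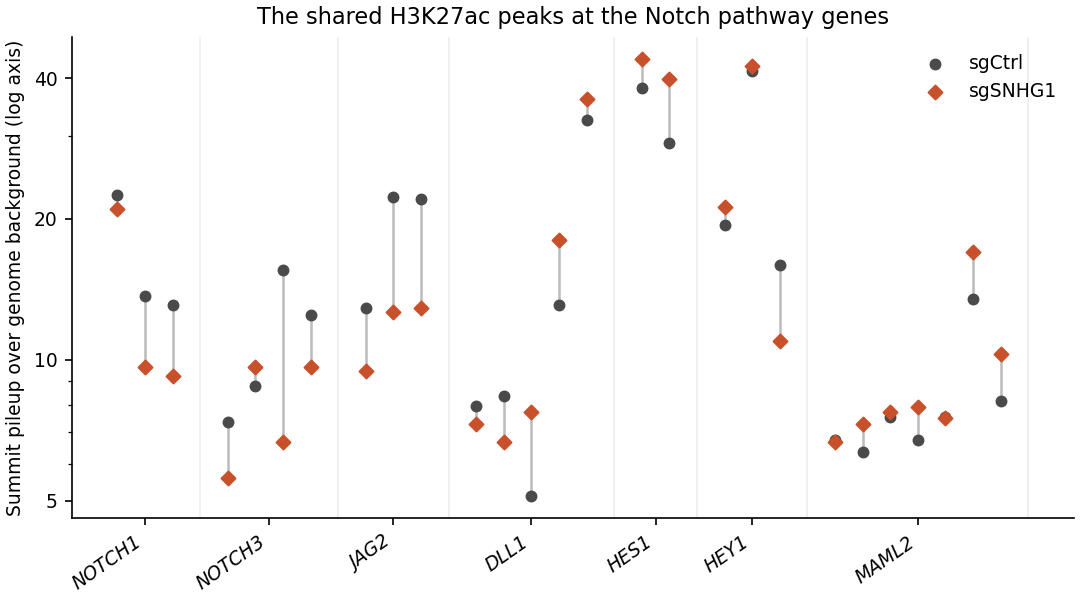
Summit pileup over the genome background of its list (vertical axis, log scale) at the 27 pairs of overlapping peaks of the Notch pathway genes, with sgCtrl as grey circles and sgSNHG1 as orange diamonds joined by a line. At *JAG2* and at 3 of the 4 *NOTCH3* pairs the sgSNHG1 value lies below the sgCtrl value, and at both *HES1* pairs it lies above.

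At 23 of the 27 places where both lists had a peak, the H3K27ac pileup differed by less than 1.5 times. A pair was called where the scaled pileups differed by 1.5 times or more, with an exact conditional binomial interval for the counts. Of the 27 pairs, 3 were called lower in sgSNHG1, 2 at *JAG2* and 1 at *NOTCH3*, and 1 at *DLL1* was called higher. Over all 38601 pairs 11.2% were called lower and 5.04% higher. The median log2 ratio was -0.01 at these genes and -0.13 over all pairs, and 5 of the 27 intervals excluded 0. The summits of a pair lay up to 772 bp apart. The plot of scaled pileups shows the pairs of each gene. Ranked by fold enrichment within its own list, the highest peak of a gene moved by a median of -4.79 percentile points over the 9 genes with peaks in both lists, beside -0.69 over 15051 protein-coding genes (quartiles -4.16 and 2.07). These ranks come from lists of different length. With the sgCtrl list reduced to the size of the sgSNHG1 list, the median was -0.82 points, beside 0.99 over 14737 protein-coding genes. The rank at *JAG2* was 52.6 in sgCtrl, from intron 2, and 30.5 in sgSNHG1, from the peak beyond the end of the gene, a difference of -22.1 points that was -14.0 with lists of equal size. At *HES1* the ranks were 92.2 and 92.6.

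The receptors are the signal-transducing members of the pathway. *NOTCH1* (chr9:136494433-136546048) had 6 peaks in sgCtrl and 3 in sgSNHG1. Within the gene, the last exon carried 67 and 45 fragments at the summit in sgCtrl and sgSNHG1, and exon 4 carried 64 and 43. Both pairs had a log2 ratio of -0.50 with intervals that included 0 (-1.08 to 0.06 and -1.10 to 0.08). The 10 kb around them held 1215 and 1270 fragments in sgCtrl against 832 and 860 in sgSNHG1, ratios of 0.684 (0.626 to 0.748) and 0.677 (0.620 to 0.739), just short of a call. Only the sgCtrl list had peaks in intron 9, in intron 2 and 3.93 kb upstream, with 67, 54 and 61 fragments. In the gene, 39 fragments sufficed for a call at the median local background of sgSNHG1. The sgSNHG1 pileup at these places is not known, so that a weaker peak below the threshold cannot be told from none. No peak of either list lay within 1 kb of a *NOTCH1* start site. The third pair lay beyond the end of the gene, 237 bp from a start site of *SEC16A*, and had 110 and 98 fragments and 1264 and 1401 in 10 kb, a ratio of 1.11. The surrounding 5 Mb of chromosome 9 was lower as well, with a median log2 ratio of local background of -0.34 over 530 pairs, and 13.2% of these were below the *NOTCH1* median.

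*NOTCH2* (chr1:119911553-120100779) had 1 weak peak in each list at different places. The sgCtrl peak covered exon 1 with 27 fragments, and the sgSNHG1 peak lay beyond the end of the gene with 25, both near the 19 and 18 fragments that sufficed for a call at the genome background. Only 25.6% of the 32-base stretches of the exon 1 window occur once in GRCh38, and this gene has near-identical partial copies, so that the assignment of these reads is uncertain. Over every 50th peak of the sgCtrl list, 14.5% of 1274 windows had fewer than 50% such single-copy stretches.

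*NOTCH3* (chr19:15159038-15200995) had 8 sgCtrl and 4 sgSNHG1 peaks, and all 4 were shared. The summit in intron 1, 1.14 kb past the start site, went from 76 fragments in sgCtrl to 31 in sgSNHG1, a log2 ratio of -1.22 (-1.87 to -0.60). Among 3912 pairs of like GC content, 0.486% had a lower ratio, but this pair stands out as the lowest of the 27 and its rank reflects that choice. The window printed above for this peak had a GC content of 78.0%. For the other *NOTCH3* pairs, 24.0% to 76.7% of pairs of like GC content had a lower pileup ratio. At the start site itself, in exon 1, 61 fragments stood against 45 (-0.37, -0.96 to 0.21), and in exon 4 the lists had 43 and 45. Between exon 11 and intron 26 the sgCtrl list had 4 peaks of 38 to 52 fragments without a counterpart. Over 10 kb, the start site, intron 1 and exon 4 held 619, 639 and 629 fragments in sgCtrl and 435, 441 and 463 in sgSNHG1, at ratios of 0.702 (0.620 to 0.795), 0.690 (0.610 to 0.780) and 0.736 (0.651 to 0.831). These stretches overlap and count many of the same fragments, so that their ratios are not independent. The pair in the last exon was closer, with 297 and 268. Of 510 pairs within 5 Mb, whose median was -0.13, 2.94% had a log2 ratio of local background below the *NOTCH3* median of -0.48. Of the 6294 protein-coding genes with 3 or more pairs, 5.00% had a lower median.

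**Figure D3:**
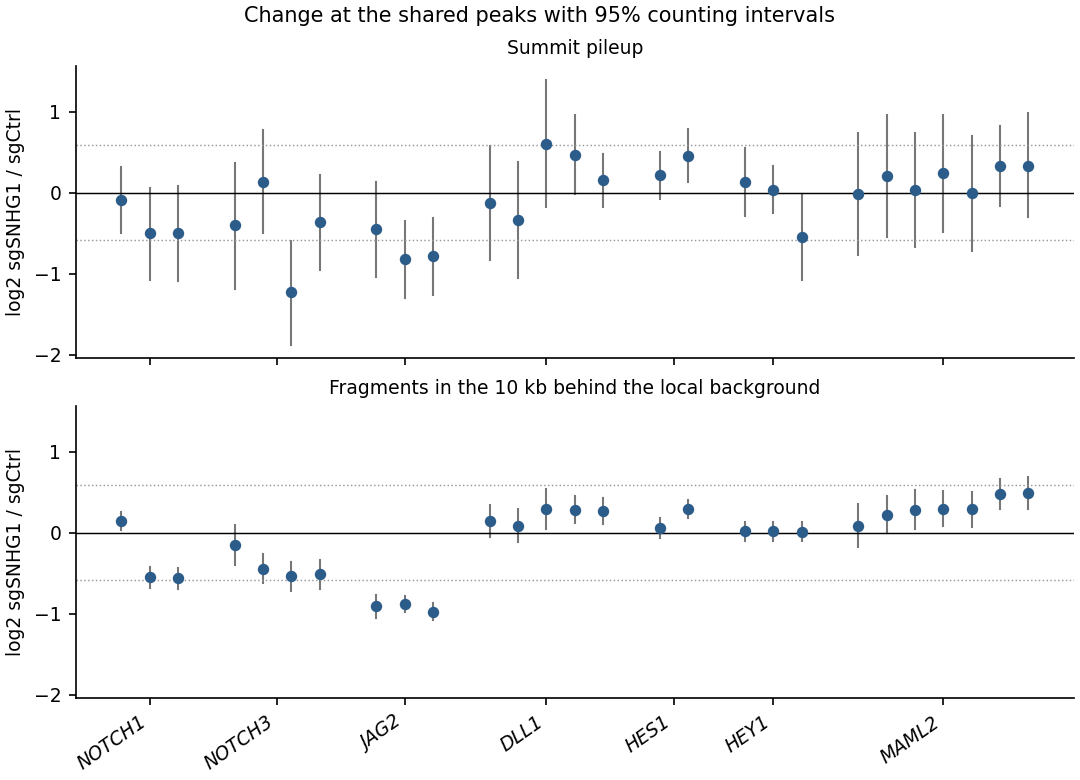
Log2 ratio of sgSNHG1 over sgCtrl (vertical axes) at the 27 shared pairs, grouped by gene and ordered by position, for the summit pileup (top) and the fragments in 10 kb (bottom). Points are ratios, bars are 95% counting intervals and dotted lines mark 1.5 times; the 3 *JAG2* pairs are the only ones past the lower line in the bottom panel.

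The ligands are presented on the signalling cell. *JAG2* (chr14:105140982-105168824) had 12 peaks in sgCtrl and 4 in sgSNHG1. Within the gene, 11 of the sgCtrl peaks spread from intron 2 to intron 25, with 2288 to 2734 fragments per 10 kb, which is 9.71 to 11.6 times the genome background. The 3 sgSNHG1 peaks within the gene had 1166 to 1365 fragments, 4.94 to 5.79 times the background. Many of these 10 kb stretches overlap within a list, so that the peaks are not separate measurements of the gene. The shared pair in intron 2, near the start, had 2288 and 1166 fragments in 10 kb, a ratio of 0.509 (0.474 to 0.547). The pair in exon 24 had 2395 and 1304 (0.544, 0.508 to 0.582), and the pair beyond the end of the gene had 1236 and 659 (0.533, 0.484 to 0.586). All 3 were called lower, as 2.82% of all pairs were, but the stretches of the last 2 pairs overlap. The summits changed alike, from 108 to 60 fragments in intron 2 (log2 ratio -0.78, -1.26 to -0.31), from 109 to 59 in exon 24 (-0.81, -1.30 to -0.34) and from 63 to 44 downstream (-0.45, -1.04 to 0.13).

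Among the 6294 protein-coding genes with 3 or more shared pairs, 2 had a lower median ratio of local background than the -0.91 of *JAG2*, a comparison made because of these values. The wider region was lower too, and the difference grew towards the gene. The median log2 ratio of local background was -0.28 over 199 pairs at 200 kb to 1 Mb from *JAG2*, -0.41 over 33 pairs at 50 to 200 kb and -0.59 over 4 pairs at 10 to 50 kb. The plot of local signal around *JAG2*, *NOTCH3* and *HES1* shows these peaks. Because the caller compares each summit with its surroundings, the fold enrichment did not show this difference, with a median log2 ratio of fold enrichment of 0.18 at the 3 pairs. Whether fewer cells carried the mark or each cell carried less of it cannot be told apart in such bulk data.

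The 9 *JAG2* peaks found in sgCtrl alone had 89 to 199 fragments at the summit. Most stood little above their surroundings. The 11 sgCtrl peaks within the gene had a median fold enrichment of 2.23, beside 3.75 over all sgCtrl peaks. The lowest of the 9, in intron 24, had 89 fragments where 86 sufficed for a call. In the sgSNHG1 gene body, 53 fragments sufficed for a call at the median local background, and 87 were needed in sgCtrl. The sgSNHG1 pileup at these 9 places is not known and may have lain just below a call. The highest of these sgCtrl peaks, in intron 2 and 6.19 kb past the start, reached 199 fragments with a -log10 p of 55.7, and no sgSNHG1 peak lay there. Its window, the first printed above, was a tandem repeat in which the word GTGCCCTG occurred 6 times and 59.2% of bases equalled the base 17 positions on. As high a share at any shift of 8 to 80 bases was found in 3.38% of 1274 windows across the sgCtrl list. All its 32-base stretches were single-copy in GRCh38, as were those of the other 15 *JAG2* windows, and the peak was 218 bp long. It had no CpG in 250 bases, whereas the shared intron 2 window had 40 CpGs, a GC content of 81.6% and an E-box. The pairs in exon 24 and beyond the end of the gene lay more than 10 kb from it and had the ratios of 0.544 and 0.533 given above. Whether the repeat had a part in the difference at *JAG2* was not tested.

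**Figure D4:**
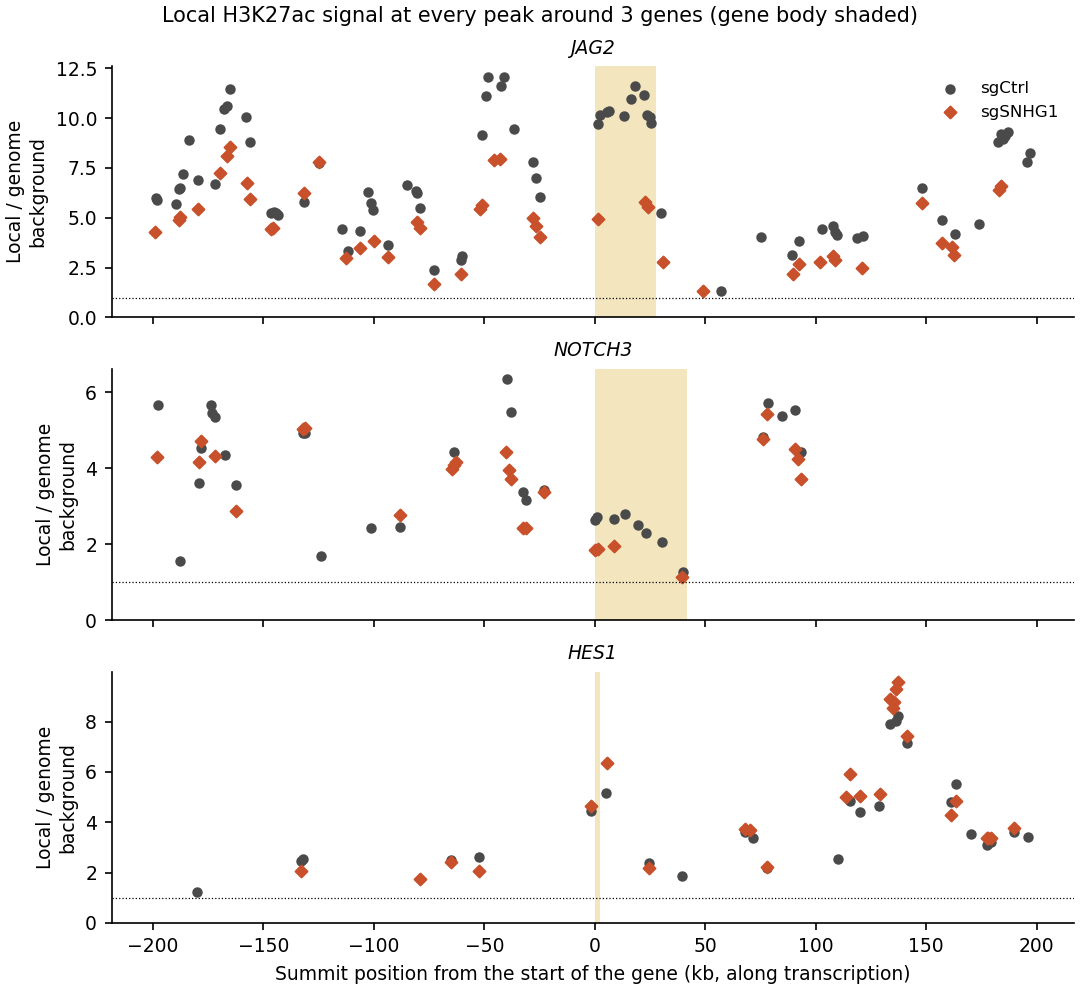
Local background over the genome background (vertical axis) at every peak within 200 kb of the start of *JAG2*, *NOTCH3* and *HES1*, against the distance of the summit from the start along transcription (kb). Grey circles are sgCtrl, orange diamonds are sgSNHG1, the gene body is shaded and the dotted line is the genome background; inside *JAG2* sgCtrl lies between 9.71 and 11.6 and sgSNHG1 between 4.94 and 5.79.

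*DLL1* (chr6:170282206-170306565) had 6 peaks in sgCtrl and 7 in sgSNHG1, of which 5 were paired. Its highest signal lay 16.0 kb upstream of the canonical start, next to start sites of *FAM120B* and of a longer *DLL1* transcript, with 159 and 168 fragments (log2 ratio 0.15, -0.17 to 0.47). The neighbouring pair, 52 bp from that other *DLL1* start, had 64 and 84 (0.46, -0.02 to 0.96). At the canonical transcript, a pair near the start had 41 fragments in sgCtrl, with its summit in intron 1, and 31 in sgSNHG1, with its summit in intron 2. Exon 9 had 39 and 34. The one pair called higher among these genes, 5.49 kb upstream of that start, was weak, with 25 and 36 fragments and an interval that included 0 (0.60, -0.18 to 1.39). Its 10 kb held 251 and 307 fragments, near the genome background of 236. All 5 local ratios of *DLL1* were above 0, from 0.09 to 0.29 on the log2 scale, whereas the median of 131 pairs within 5 Mb was -0.11.

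*DLL3* (chr19:39498895-39508481), an inhibitory ligand and a surface target in neuroendocrine tumours, had 2 weak sgCtrl peaks, in exon 2 at its own start with 29 fragments and in exon 4 with 35. The sgSNHG1 list had neither, and its only peak in the window, with 21 fragments, was 529 bp from a start site of *SELENOV*. *JAG1* (chr20:10637684-10673999) stood in a region without peaks. Within 200 kb of its start the sgCtrl list had 2 peaks of 21 fragments, the nearer 103 kb away, and the sgSNHG1 list had none. A summit of fewer than 19 fragments in sgCtrl or 18 in sgSNHG1 was not detectable there.

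*MAML2* (chr11:95976598-96343195), which bridges the receptor complex and acetyltransferases, was the longest of these genes and had 9 sgCtrl and 11 sgSNHG1 peaks of modest height. The 7 pairs had log2 ratios of the pileup from -0.02 to 0.33, with every interval including 0. The highest, in intron 1, had 66 and 79 fragments, and the pair in exon 1 had 40 and 48. Over 10 kb these places held 410 and 571 fragments (ratio 1.39, 1.22 to 1.58) and 363 and 511 (1.41, 1.23 to 1.61). Both were below the 1.5 times of a call, with intervals above 1. The other 5 local ratios were 1.06 to 1.23. Of 101 pairs within 5 Mb, with a median log2 ratio of 0.11, 70.3% lay below the *MAML2* median of 0.28. Repeats bear on this gene. Of its 4 peaks in sgSNHG1 alone, with 22 to 37 fragments, 3 had under 50% single-copy stretches (4.11%, 16.0% and 39.7%), and so had the highest sgCtrl peak (45.2%, and 76.7% at its sgSNHG1 counterpart), while the exon 1 pair had only single-copy stretches. The remaining peak in sgSNHG1 alone, in intron 2 with 22 fragments, had 83.6% such stretches. In its window 72.5% of bases equalled the base 21 positions on. A share of 70% or more was found in 1.10% of 1003 windows across the sgSNHG1 list.

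Of the targets, *HES1* (chr3:194136148-194138732) had 2 strong pairs and none over the gene itself. The upstream peak, 1.60 kb before the start, had 186 fragments in sgCtrl and 205 in sgSNHG1 (log2 ratio 0.21, -0.08 to 0.51). The downstream peak, 5.17 kb past the start and thus beyond the end of the gene, had 142 and 185 (0.45, 0.13 to 0.78), an interval that excluded 0 without reaching a call. Its 10 kb held 1216 and 1495 fragments (1.23, 1.14 to 1.33) and that of the upstream peak 1050 and 1096 (1.04, 0.958 to 1.14). Of 208 pairs within 5 Mb, with a median log2 ratio of local background of -0.10, 85.6% lay below the *HES1* median. The promoter with the pair of RBPJ cores printed above lay between these peaks and was under neither.

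*HEY1*, on chromosome 8 at 79762371 to 79767857, had 3 pairs and no other peak. At the start, the sgCtrl summit in intron 1 had 95 fragments and the sgSNHG1 summit in exon 1 had 99, and 0.834 kb upstream, the highest summit of the gene, 203 and 198 (log2 ratio 0.03, -0.25 to 0.32). The third pair, 2.27 kb upstream, had 78 and 51, and its interval excluded 0 (-0.54, -1.08 to -0.01) without reaching a call. Their 10 kb held 1141 to 1170 fragments in sgCtrl and 1152 to 1187 in sgSNHG1, all at a ratio of 1.01, with an interval of 0.929 to 1.10 around the summit 2.27 kb upstream. These stretches largely overlap, so that they amount to little more than a single measurement.

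**Figure D5:**
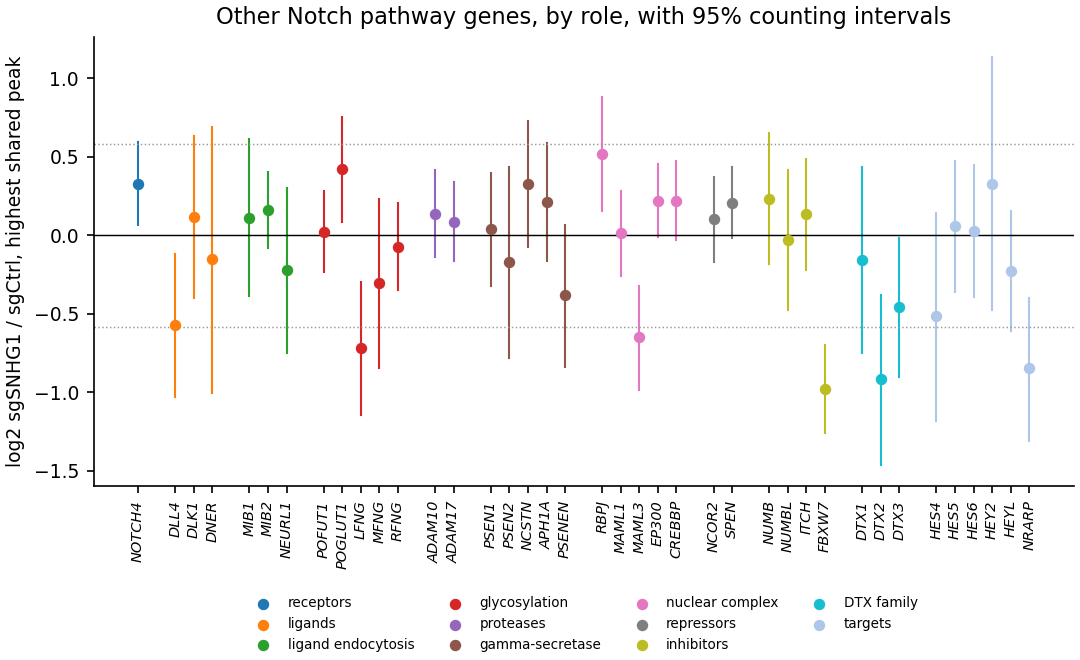
Log2 ratio of sgSNHG1 over sgCtrl (vertical axis) of the highest shared peak at 39 other Notch pathway genes, coloured by role. Points are ratios, bars are 95% counting intervals and dotted lines mark 1.5 times; *FBXW7*, *DTX2*, *NRARP*, *LFNG* and *MAML3* lie below the lower line and none lies above the upper one.

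The other genes of the pathway, a list of 43 by role, were examined in the same way. A peak within 1 kb of their own start site was found in both lists at 33 genes, in sgCtrl only at 4, in sgSNHG1 only at 1 and in neither at 5. Over the 19663 protein-coding genes with an annotated start site of this kind, these shares were 60.8%, 4.57%, 3.68% and 30.9%. Those in sgCtrl only were the receptor *NOTCH4* (26 fragments), the fringe glycosyltransferase *MFNG* (63) and the targets *HES2* (51) and *HES5* (77). The one in sgSNHG1 only was *DTX4* (33), of the Deltex ubiquitin ligases. In sgSNHG1, 26 genes had fewer peaks and 5 had more, beside the 37.1% and 15.1% of all genes given above. The highest shared peak was lower by 1.5 times or more at 5 of 39 genes and higher at 0, beside 8.59% and 7.25% of 14781 protein-coding genes with a shared peak. The median log2 ratio was 0.03, beside 0.07 over all genes.

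The lowest ratios were those of *FBXW7*, the ubiquitin ligase subunit that marks the cleaved receptor for degradation, *DTX2* and *NRARP*, a target that restrains the receptor complex. *FBXW7* had 331 fragments in sgCtrl and 160 in sgSNHG1 (log2 ratio -0.98, -1.26 to -0.70), *DTX2* had 89 and 45 (-0.91, -1.46 to -0.38), and *NRARP* had 121 and 64 (-0.85, -1.31 to -0.40). The remaining 2 calls, named after their values were seen, were the glycosyltransferase gene *LFNG* (log2 ratio -0.71, -1.14 to -0.30) and *MAML3* (-0.65, -0.98 to -0.32), a relative of *MAML2*. The highest ratios were at *RBPJ*, the DNA-binding hub of the pathway, with 113 and 154 (0.52, 0.16 to 0.88), *POGLUT1*, which glucosylates the receptors, with 135 and 172 (0.42, 0.09 to 0.76), and *NOTCH4*, with 221 and 264 (0.33, 0.06 to 0.59) at a peak away from its own start, where only sgCtrl had the peak of 26 fragments given above. None of these 3 reached a call. The *LFNG* pair had 131 and 76 fragments in sgCtrl and sgSNHG1, whereas its highest own-start peaks had 136 and 103. The pairs of *DTX2*, *MAML3* and *POGLUT1*, like that of *NOTCH4*, lay more than 1 kb from a start site of the gene. At their own start sites *DTX2* had 56 and 33 fragments and *MAML3* 204 and 124, and *POGLUT1* was again higher in sgSNHG1. The plot of the other pathway genes shows all 39 by role.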

How the data were processed

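H3K27ac ChIP-seq of 4 samples of SK-N-BE(2)C cells was used. The authors sequenced 75-bp paired ends, trimmed adaptors with cutadapt, aligned to GRCh38 with BWA, merged both replicates of each group and ran MACS2 at p = 1e-06 with all duplicates kept. For each peak the deposited lists give a fold enrichment, the ratio of summit pileup to local background with a pseudocount of 1, and a −log10 p-value from the authors' caller. The depth per sample is unknown. If the default effective genome size of 2.7 Gb was kept, the pooled lists rest on 63.6 M and 63.7 M fragments.

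Pileups and local backgrounds were recovered from both values within a tolerance of 0.001 (Poisson), and local backgrounds were whole numbers of fragment ends within 0.1 for 100% of those used. Peaks were assigned to GENCODE release 44 gene bodies plus 10 kb. Pairs were each other's partner of longest overlap. GC content was taken over 500 bp in 10 bins of equal size, and neighbours were pairs within 5 Mb. With 1 pooled list per group no test was possible. A fold of 1.5 was called, and intervals (95%) were Wilson for shares and exact conditional binomial for ratios. The 10 genes, the list of 43 other genes and the markers were chosen with earlier results of these data known. Named beyond the 10 genes were those with a peak at their own start in 1 list and the 3 highest and 3 lowest ratios, and, after their values were seen, *LFNG* and *MAML3*. Alternatives covered the peak threshold, the list size, the window, the overlap, the scaling and the measure. The computations used scipy 1.17.1, numpy 2.4.6 and pandas 2.3.3 under Python 3.11.15, figures used matplotlib 3.10.9, and both recovery and intervals were tested on simulated data. The sequence under 1 peak is not reported here.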

Additional observations from a re-analysis of the deposited data

How the results depend on the processing

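The ratios of peak number and covered length over the 10 genes were below 1 under every alternative that was run. The sgSNHG1 list was shorter, at a ratio of 0.787 over all peaks, so that a ratio below 1 is not particular to these genes. With lists of equal size the ratio of peak number was near 1. The ratio of peak number ranged from 0.568 (peaks nearest to a start site of the gene itself) to 0.973 (sgCtrl list reduced to the size of the sgSNHG1 list), the ratio of covered length from 0.581 to 0.875, the shared sgCtrl share from 44.9% to 64.9% and the shared sgSNHG1 share from 61.1% to 83.3%. The median change of the highest peak ranged from -7.12 to -0.41 points under the alternatives fixed at the start, and was 4.33 points with the percentile of the local background, which was added after seeing the data. The median log2 ratio of the 27 pairs ranged from -0.01 to 0.12, the latter with the median of all pairs (-0.13) set to 0, under which the *JAG2* median was -0.65.

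Single genes depended more on the measure. The change at *NOTCH1*, -20.5 points, belongs to the peak near a *SEC16A* start site beyond the end of the gene. It was -11.0 with lists of equal size, -1.68 in the gene body alone, -3.38 with its own nearest peaks and -2.45 by summit pileup, and had the opposite sign with 50 kb on either side (2.35) or by local background (5.72). At *JAG2* the change was -14.0 with lists of equal size, -42.2 in the gene body alone, -35.2 with 50 kb, -37.5 by summit pileup and -11.7 by local background, while the median log2 ratio of fold enrichment was 0.18 in place of -0.78 for the pileup, since the local background in its denominator was lower too. By fold enrichment the medians of *NOTCH1* (0.02), *DLL1* (-0.10) and *MAML2* (-0.11) also changed sign, none past 1.5 times. At *NOTCH3* the change was -26.4 by summit pileup and 2.46 with 50 kb. At *DLL3* it was -21.6 by summit pileup, -28.3 by local background and 3.44 with 50 kb. With lists of equal size the changes at *NOTCH2* (2.86), *DLL3* (1.98) and *HEY1* (0.67) were above 0 and that at *NOTCH3* was -3.21. At *MAML2* it was 12.6 by summit pileup and 14.1 by local background, and at *HES1* 10.6 by local background. The causes of these moves were not tested apart from the one named. No paired analysis was possible because the authors pooled the replicates and no result comes from a test, and leaving out 1 replicate was not possible for the same reason. Depth limits weak genes most, since a summit under 19 fragments in sgCtrl or 18 in sgSNHG1 cannot be called.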
